A study of Chlamydomonas reinhardtii with 2 samples.

Results

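Short introns of the green alga Chlamydomonas reinhardtii were followed in cDNA reads from the 454 pyrosequencer. The set holds 564 distinct GT-AG introns, selected on a length of 20 to 100 bases and on spliced alignments in 2 or more N-replete reads. They make up 12.5% of the 4525 GT-AG introns with the same minimum of reads (95% binomial interval 11.5 to 13.5). An intron is here a gap of 20 or more genome bases inside a read that the aligner marked with GT-AG borders and a splice direction. Since the members were chosen by length, border sign and read number, these values are given as a description. The limits were set with earlier results of these data known.

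The series set an N-deprived culture against an N-replete culture of strain dw15.1 (genotype cw15, nit2, mt+), with 1 biological replicate of each. Cells at 5000000 per mL were divided and kept for 48 hours in 50 mL of TAP medium, without nitrogen (N-deprived) or with 10 mM ammonium (N-replete). The mutation cw15 affects the cell wall, nit2 affects a regulator of nitrate assimilation, and both cultures carried them. Complementary DNA was made with an oligo(dT) primer and the SMART kit, then amplified by PCR, cut with SfiI and fractionated by size. Only N-replete reads enter the values below. Reads of the N-deprived culture were not analysed here, which leaves no comparison of the conditions and no replicate error.

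Introns are cut out of the primary transcript by the spliceosome, which recognises a donor site at the 5' border (GT in most introns) and an acceptor site at the 3' border (AG). The branch point, whose adenosine attacks the donor site, lies between them, so an intron cannot be arbitrarily short. Nuclear genes of Chlamydomonas are rich in introns. A read of spliced cDNA crosses from exon to exon, and a read that runs into the intron comes from unspliced RNA, from another RNA or from DNA.

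The library held 239585 reads with an alignment, of which 16189 had a separate place scoring within 0.1 percentage points and were left out. Among the 223396 remaining reads, 44549 crossed a GT-AG intron and 7391 were spliced at a short intron. The short introns took 8477 of the 55534 splice events at introns with 2 or more reads (15.3%, interval 14.97 to 15.6). Intervals in brackets are exact Clopper-Pearson 95% intervals for shares and order-statistic intervals for medians. They describe counting error, and PCR copies are not independent molecules. Introns of 1 locus also share reads, so differences between length classes are described and were not tested. Positions are in the build of the deposited alignments, which the sources used here do not name. Its sequences are called 1 to 17 and NA. No gene or gene part was assigned to a position.

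The short introns had a median length of 82 bases (interval 81 to 83), with quartiles of 72.75 and 90. Few lay far below that. Only 4 had fewer than 50 bases and 14 had 50 to 59 bases, against 84 with 60 to 69 bases, 131 with 70 to 79, 184 with 80 to 89 and 147 with 90 to 100. Past the limit, 113 introns had 101 to 110 bases, 145 had 111 to 120 and 155 had 141 to 150. The class of 80 to 89 bases therefore held more introns than any of these 10-base classes above the limit. The commonest single length was 88 bases, with 27 introns, followed by 80 and 83 bases with 25 introns each. Across the limit itself, 34 introns had 98 to 100 bases with a median of 5 reads, and 36 had 1 to 3 bases more than the limit, with a median of 3 reads.

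**Figure D1:**
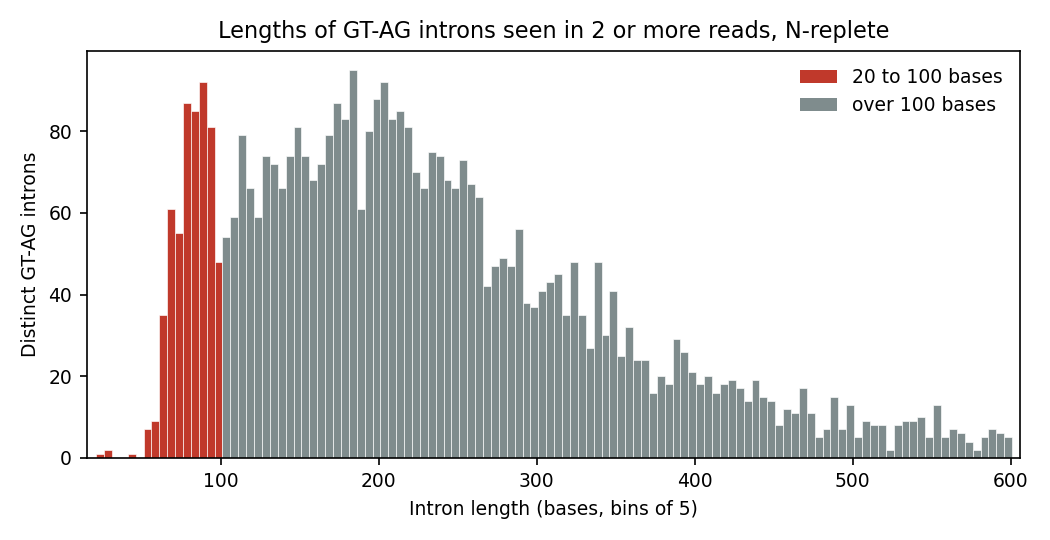
Number of distinct GT-AG introns seen in 2 or more reads, by length in bins of 5 bases up to 600 bases. Introns of 20 to 100 bases are red, with a median of 82 bases, and longer ones are grey.

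Most short introns were seen in few reads. The median was 4 spliced reads (quartiles 2 and 8), against 3 for the 3961 longer introns (quartiles 2 and 6). The minimum of 2 reads was just met by 149 short introns. At least 10 reads were found for 128 (22.7%, interval 19.3 to 26.4), against 18.2% (interval 17.04 to 19.5) of the longer introns. Spliced reads ran in both directions at 347 short introns (61.5%) and at 61.3% of the longer ones. All but 9 short introns had 2 or more reads with different alignment starts or ends, as had 3815 of the 3961 longer ones. At 562 short and 3953 longer introns, 2 or more reads had at least 10 aligned bases on both sides. The median identity of the spliced reads was 99.1% in both length groups.

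The 10 short introns with the most reads held 2386 splice events, 28.1% of all at short introns (interval 27.2 to 29.1). The intron with the most reads lies on sequence 4 at 34061 to 34137 on the plus strand. It has 77 bases and was spliced in 350 reads with 126 distinct alignments, and 1 unspliced read crossed a border. It is the first of 4 introns of its locus, 1 of which is a form of the same intron that ends at 34139 (2 reads). With overlapping forms counted once, the locus has 3. Its upstream exon was short in the reads, since no read had more than 28 aligned bases on the shorter side.

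A pair of short introns follows each other on the minus strand of sequence 9. The first, at 3950058 to 3950148, has 91 bases and 334 spliced reads. The second, at 3949825 to 3949886, has 62 bases and 309 spliced reads. No unspliced read crossed a border of either intron, and they are the first and second of 3 introns. Sequence 2 has a pair of the same kind on the plus strand, at 1208759 to 1208851 (93 bases, 188 reads) and at 1208889 to 1208980 (92 bases, 190 reads). These are the only introns with 2 or more reads at their locus of 857 reads, and 3 unspliced crossings were found at the first and 1 at the second. A further pair on sequence 2 comprises the introns at 9313452 to 9313516 (65 bases, 191 reads) and 9313578 to 9313665 (88 bases, 177 reads), the first and second of 4. Neither had an unspliced crossing.

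The other 3 lie in separate loci. On sequence 12, the intron at 100952 to 101037 on the minus strand has 86 bases and 255 reads and is the first of 2. On sequence 11, the intron at 1373942 to 1374040 on the minus strand has 99 bases and 203 reads and is the second of 5. On sequence 6, the intron at 3978128 to 3978208 on the plus strand has 81 bases and 189 reads and is the first of 7. None of these 3 had an unspliced crossing. In all, 6 of these 10 introns were the first of their locus and the remaining 4 were the second.

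Short introns lay mostly on the 5' side of their transcripts. In loci with 2 or more introns on 1 strand, 237 of 462 short introns were the first (51.3%, interval 46.6 to 55.9), against 801 of 3191 longer introns (25.1%, interval 23.6 to 26.6). The last place was held by 45 short introns (9.74%, interval 7.19 to 12.8), against 31.1% (interval 29.5 to 32.8) of the longer introns. Among the longer classes, 26.9% of introns of 101 to 200 bases, 23.7% of those of 201 to 399 bases and 24.9% of those of 400 bases or more were first. The last place was held by 28.2% (interval 25.6 to 30.8), 34.1% (interval 31.7 to 36.5) and 29.1% of these 3 classes in the same order. In loci with exactly 2 introns, 70 of 102 short introns were the first (68.6%, interval 58.7 to 77.5), against 369 of 776 longer ones (47.6%, interval 43.99 to 51.1). Where every intron counted had at least 10 reads, 67 of 117 short introns were first (57.3%, interval 47.8 to 66.4), against 143 of 664 longer ones (21.5%, interval 18.5 to 24.9). The order counts only introns with the minimum of reads, and an intron upstream of all reads would go unseen. Alternative forms that overlap count as separate places. With the 28 introns left out that overlap a form with more reads, 6 of them short, 237 of 456 short introns were first (51.97%, interval 47.3 to 56.6), against 801 of 3169 longer ones (25.3%, interval 23.8 to 26.8). Near the length limit, 14 of 32 introns of 98 to 100 bases were the first, and 10 of 29 introns with 1 to 3 bases more than the limit were.

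**Figure D2:**
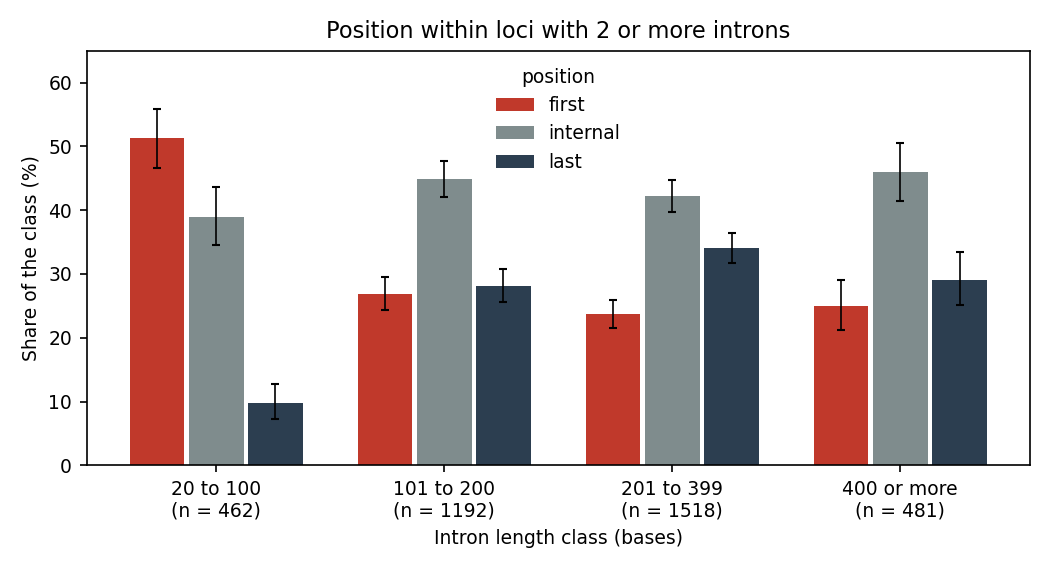
Share of introns that are the first, an internal or the last intron on their strand, in percent, for 4 length classes in loci with 2 or more introns. Bars are shares and error bars are 95% binomial intervals; 51.3% of the introns of 20 to 100 bases and 25.1% of all longer ones were first.

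Intron length changed step by step over the first introns. In the 599 loci and strands with 3 or more introns, short introns made up 27.9% of the first introns (167 of 599, interval 24.3 to 31.7), 18.2% of the second (interval 15.2 to 21.5) and 9.02% of the third (interval 6.84 to 11.6). They made up 5.18% of the fourth (interval 3.15 to 7.97) and 1.80% of those in place 5 or later (11 of 611, interval 0.902 to 3.20). The median length of all introns was 152 bases in the first place, 191 in the second, 230 in the third, 236 in the fourth and 231 after that.

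Loci whose 5' cDNA end was seen gave the same order. A 5' end was taken from reads with 34 to 44 unaligned leading bases, a range chosen with earlier results of these data known. Whether such ends are those of full transcripts was not tested. The end had to have at least 10 of these reads and lie before every intron. Among the 153 such loci with 3 or more introns, short introns made up 35.9% of the first introns (55 of 153, interval 28.4 to 44.1), 26.8% of the second (interval 19.97 to 34.5) and 10.5% of the third. They made up 6.31% of the fourth and 3.74% of the later ones. Median length was 126 bases in the first place and 215 bases from place 5 on. In the 187 such loci with 2 or more introns, 62 of 135 short introns were first (45.9%, interval 37.3 to 54.7), against 125 of 690 longer ones (18.1%, interval 15.3 to 21.2). The first place was held by 21.99% of introns of 101 to 200 bases (interval 17.4 to 27.2), 17.4% of those of 201 to 399 bases and 10.3% of those of 400 bases or more (interval 5.41 to 17.2), and the first and last of these intervals do not overlap. The first exon, from the commonest 5' end to the donor, had a median of 121.5 bases before 66 short first introns (interval 99 to 153). Before 140 longer first introns it had 153 bases (interval 121 to 182), and these intervals overlap.

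**Figure D3:**
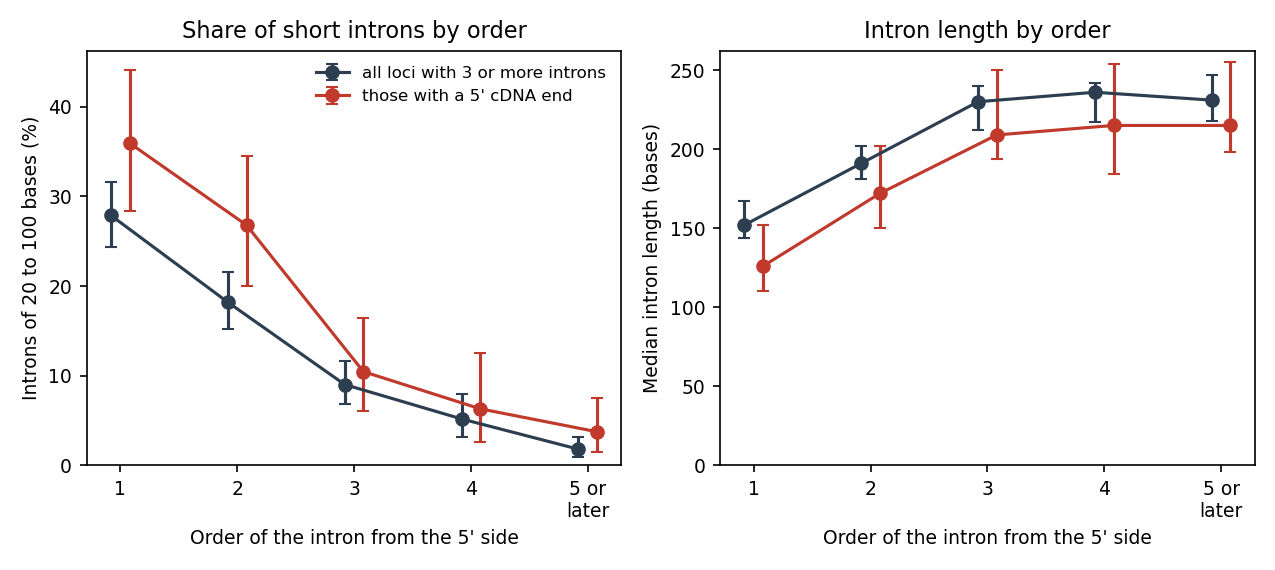
Left, share of introns of 20 to 100 bases in percent, and right, median length of all introns in bases, by order from the 5' side in loci with 3 or more introns. Points are shares or medians with 95% intervals, for all 599 loci and strands and for the 153 with a 5' cDNA end; the share of short introns falls from the first place to the last and the median length rises up to the third.

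Short introns also lay beside each other. A read that crosses 2 introns shows which introns are neighbours, and 1937 such pairs of introns were seen. Of the neighbours of short introns, 248 of 512 were short themselves (48.4%), against 264 of 3362 neighbours of longer introns (7.85%). These are 388 pairs with a short intron, and the 124 pairs of short introns count from both sides, so no interval is given. In pairs of a short and a longer intron, the short intron was the one on the 5' side in 199 of 264 (75.4%, interval 69.7 to 80.5). The same was seen at a fixed place in the locus. After a short first intron, the second was short in 68 of 167 loci (40.7%, interval 33.2 to 48.6), against 41 of 432 (9.49%, interval 6.90 to 12.7) after a longer first intron. After a short second intron the third was short in 40 of 109 loci (36.7%), against 14 of 490 (2.86%) after a longer second intron. These counts keep overlapping forms of an intron as separate places. Examples are the forms of 77 and 79 bases on sequence 4 and those of 79 and 84 bases on sequence NA.

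Exons between short introns were short as well, among exons that lie inside a read. The median was 71 bases between 2 short introns (124 exons, interval 66 to 78). It was 77 bases between a short and a longer intron (264 exons, interval 72 to 83) and 87 bases between longer introns (1549 exons, interval 85 to 90). The first and last of these intervals do not overlap. Exons of 10 bases or fewer lay beside short introns at 3 places. They have 8 bases on sequence 17 at 6322745 to 6322752 (7 reads), 10 bases on sequence NA at 3186149 to 3186158 (2 reads) and 3 bases on sequence 1, described with the shortest introns. The exons of 8 and 3 bases had a longer intron, of 126 and 146 bases, on their other side. No such count was made for longer introns, and the shortest exon between 2 longer introns had 4 bases.

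The 564 short introns fell in 397 loci, which are 20.9% of the 1900 loci with an intron. A single short intron was found in 277 loci, 2 in 84, 3 in 27, 4 in 7 and 5 in 2. Thus 287 short introns (50.9%) shared their locus with another. These introns enter the count in groups, so no interval is given, and overlapping forms count as separate introns. The same share was not computed for longer introns. Loci are runs of overlapping alignments, so a locus can join neighbouring transcripts.

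Both loci with 5 short introns are on sequence 1 and run on the minus strand. At 8762934 to 8767104, with 50 reads, the introns in transcript order have 65, 61, 72, 76, 73, 138, 352 and 953 bases. Each is supported by 4 to 7 spliced reads, and none had an unspliced crossing. The 5 short introns come first, and lengths increase over the 3 that follow. At 911408 to 914076, with 43 reads, the lengths in transcript order are 70, 63, 88, 87, 76, 307, 185 and 172 bases. The spliced reads of these introns ran from 2 to 14. Again the 5 short introns are the first 5 of 8. Unspliced crossings were found only at the first of them, at 913792 to 913861, with 5 against 2 spliced reads. All 5 were at the acceptor border, and no read ran unspliced through the whole intron.

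The third locus in this ranking, by members and then by reads, is on sequence 2 at 6455086 to 6459768, with 132 reads on the plus strand. Its 4 short introns have 78, 91, 99 and 86 bases and 13, 11, 11 and 4 spliced reads. Longer introns of 634 and 182 bases stand between the first short intron and the other 3. The short intron at 6457042 to 6457127 shares its donor with an intron of 264 bases that ends at 6457305. The longer form had 8 reads and the short form 4, and the exon of 57 bases at 6457128 to 6457184 lies inside the longer form. Only 1 read held that exon with both introns.

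**Figure D4:**
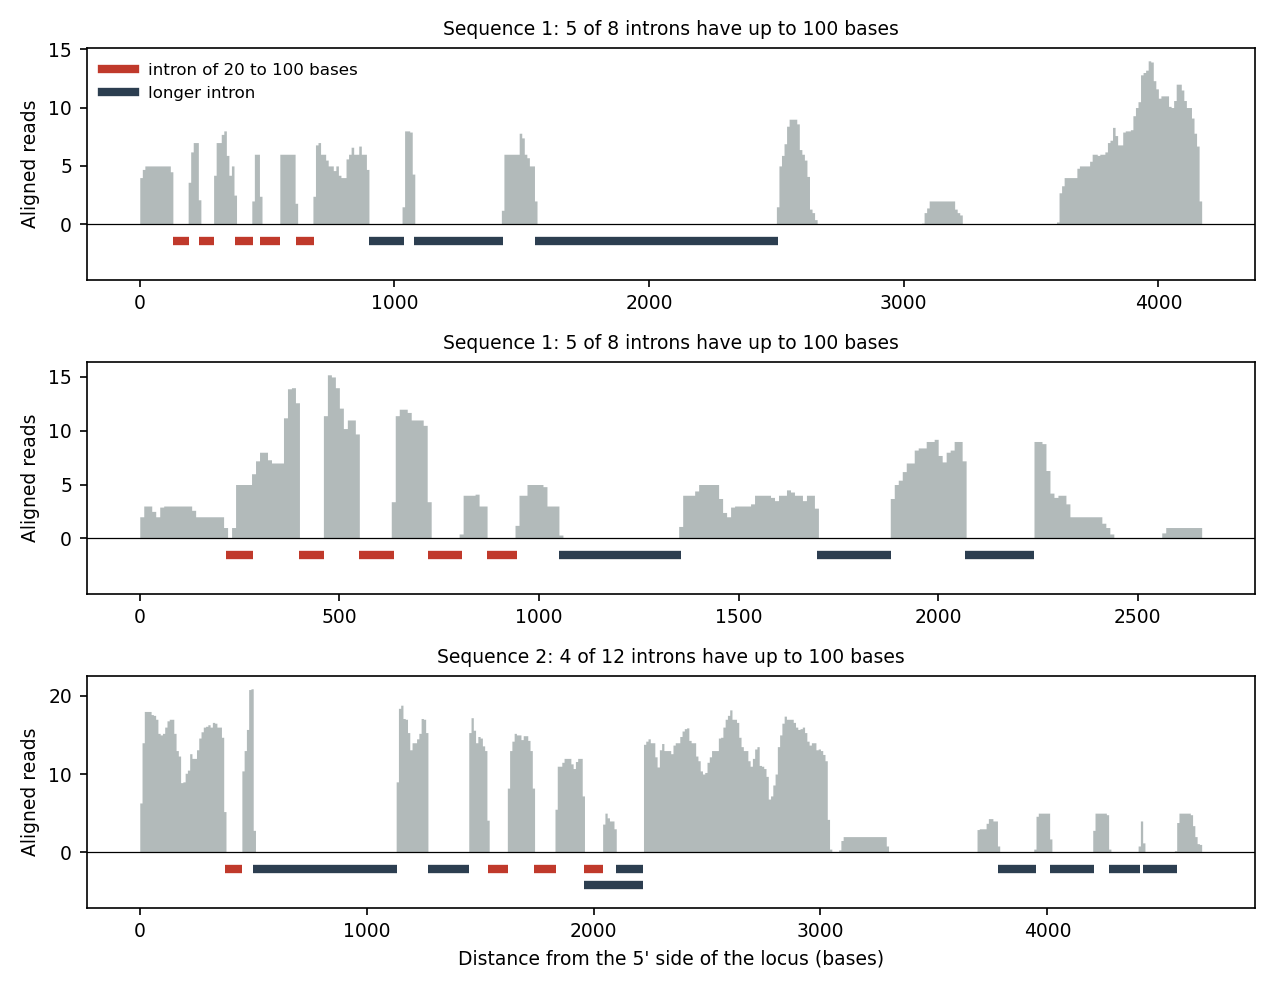
Aligned reads along the 3 loci with the most short introns (grey, mean per 10 bases) against distance from the 5' side in bases, with introns drawn below as bars. Red bars are introns of 20 to 100 bases and dark bars are longer introns; in the upper and middle loci the first 5 introns are short, and in the lower locus 4 of 12 are.

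Unspliced reads made up a small share of the border crossings at short introns. An unspliced crossing needed 10 aligned bases on each side of a border. Each spliced read counted at both borders whatever the length of its exons. A read counted as unspliced at a border when 1 of its exons ran across it, even if the read was spliced elsewhere or at another border nearby. Such a read was counted whatever its strand, and at both borders if it crossed both. Crossings of the same read are not independent, so the intervals of crossing shares are too narrow. No unspliced crossing was found at 516 of the 564 short introns. At least 1 was found at 48 (8.51%, interval 6.34 to 11.1), against 175 longer introns (4.42%, interval 3.799 to 5.11), and these intervals do not overlap. This comparison was not split by number of spliced reads, which was higher at short introns (median 4 against 3). In all, 281 of 17235 crossings were unspliced (1.63%, interval 1.45 to 1.83), against 848 of 94962 (0.893%, interval 0.834 to 0.955) at longer introns. With 10 exon bases on both sides also asked of spliced reads, the share at short introns was again 1.63%. A few introns made up most of these counts. Without the 7 short introns and the 3 longer ones with more unspliced than spliced crossings, the shares were 0.465% (interval 0.368 to 0.579) for short and 0.335% (interval 0.299 to 0.374) for longer introns. Their intervals overlap.

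The share was lower with more spliced reads, which is partly built in, since that number enters its denominator and how members were chosen. Among introns with 50 or more spliced reads it was 0.274% (28 of 10224 crossings, interval 0.182 to 0.396) for 42 short introns and 0.217% (112 of 51648 crossings, interval 0.179 to 0.261) for 209 longer ones, with overlapping intervals. With 10 to 49 spliced reads it was 0.549% (interval 0.331 to 0.856) for 86 short introns and 0.411% (interval 0.329 to 0.508) for 513 longer ones, and these intervals overlap too. With 5 to 9 spliced reads it was 1.86% (interval 1.26 to 2.62) for 129 short introns and 0.412% (interval 0.287 to 0.572) for 664 longer ones. Leaving out the 1 short intron of that class read through in most crossings gave 0.731% (interval 0.378 to 1.27). Among introns with 2 to 4 spliced reads it was 10.8% (interval 9.43 to 12.3) for 307 short introns and 4.42% (interval 4.09 to 4.78) for longer ones. Without the introns read through in most crossings, the last pair became 1.20% (interval 0.733 to 1.84) and 0.621% (interval 0.495 to 0.770). A short intron can lie whole within a read, and a long one seldom can. Reads that ran unspliced through the whole intron numbered 70, at 11 short introns. There were 4 at introns of 101 to 200 bases and 0 at longer ones.

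The 7 short introns with more unspliced than spliced crossings had at most 5 spliced reads each. The largest count was at 7648237 to 7648317 on sequence 12 (81 bases, minus strand), with 94 unspliced of 98 crossings and 2 spliced reads that shared 1 alignment. Both of these reads also had another place on the genome. The other introns of the locus run on the plus strand, with 176 splice events. Unspliced reads were counted on either strand, and whether these 94 crossings came from plus-strand transcripts was not tested. They are part of the 281 unspliced crossings over all short introns. The intron at 2505078 to 2505118 on sequence 7 (41 bases) had 58 unspliced of 62 crossings, and 25 reads ran through it whole. At 613988 to 614053 on sequence 6 (66 bases), 19 of 29 crossings were unspliced, 17 of them at the donor border and 2 at the acceptor border.

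The remaining 4 had 5 to 13 unspliced crossings. On sequence 11 at 1982669 to 1982735 (67 bases) they were 13 of 19, and on sequence 13 at 46385 to 46466 (82 bases) they were 7 of 13. On sequence NA at 3276429 to 3276484 (56 bases) they were 6 of 10. The last is the first intron of the locus on sequence 1 at 911408, given above, with crossings at the acceptor border only. With so few crossings these shares have wide intervals, such as 25.1 to 80.8 percent for 7 of 13.

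**Figure D5:**
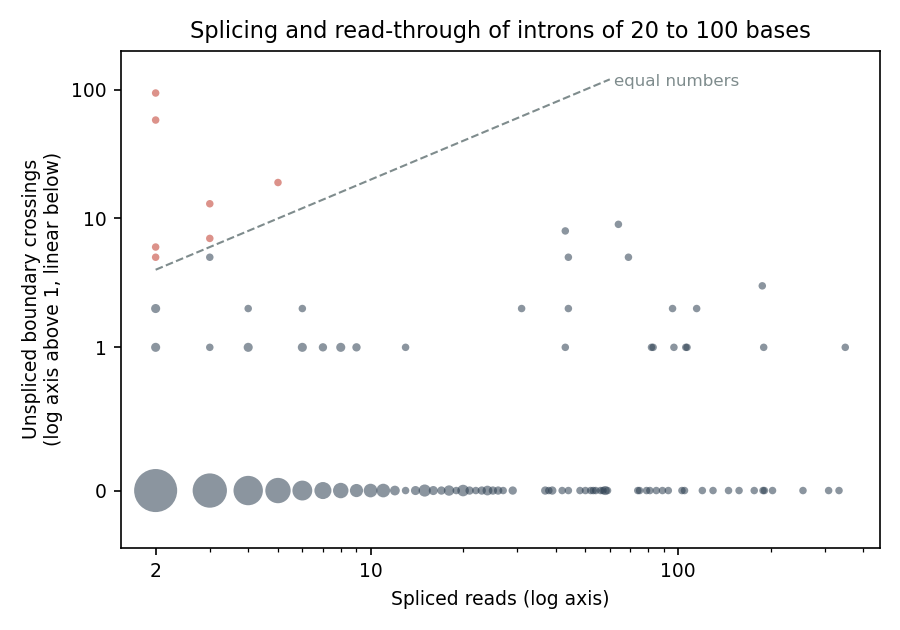
Unspliced border crossings against spliced reads for the 564 introns of 20 to 100 bases, with log axes as labelled. Each point stands for the introns with the same pair of values, larger points for more introns, and the 7 red points lie above the dashed line at which unspliced and spliced crossings are equal in number.

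Alternative partners were seen at few short introns. A donor or acceptor was shared with another intron of 2 or more reads at 10 of 564 short introns (1.77%, interval 0.853 to 3.24), against 35 of 3961 longer ones (0.884%, interval 0.616 to 1.23). These intervals overlap. In 4 of the 6 shared sites the partners differed by 5 bases or fewer. On sequence 4, the donor at 34061 joined an acceptor border at 34137 in 350 reads and another at 34139 in 2 reads. On sequence NA, the donor at 5791106 (minus strand) gave introns of 79 bases in 105 reads and of 84 bases in 9 reads. On sequence 3, the donor at 1586090 gave introns of 86 bases in 9 reads and of 83 bases in 5 reads, a difference of 3 bases. On sequence 6, introns of 69 bases (9 reads) and 65 bases (2 reads) shared the acceptor border at 1188859 on the minus strand. At these 4 sites the form with fewer reads had 2 to 9 reads. The remaining shared sites joined a short intron and a longer one, namely the site on sequence 2 given above and the donor at 336390 on sequence 10, with 78 bases in 48 reads and 384 bases in 2 reads. Gaps with another sign than GT-AG overlapped 26 short introns, in 42 reads in all. The same count was not made for longer introns.

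An intron whose length is a multiple of 3 within a coding sequence keeps the frame when it is retained, unless it holds a stop codon. Lengths divisible by 3 were found for 181 of 564 short introns (32.1%, interval 28.3 to 36.1), against 33.2% (interval 31.7 to 34.7) of the longer introns. A remainder of 1 was found for 31.7% and a remainder of 2 for 36.2% (interval 32.2 to 40.3) of the short introns. The intervals for the short introns and those for the longer ones overlap for every remainder.

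Of the 5 shortest members, 2 rest on alignments with few exon bases or low identity. The shortest, at 3944918 to 3944938 on sequence 1 (minus strand), has 21 bases in 4 reads. It is separated from an intron of 146 bases by an exon of 3 bases, the only exon bases on that side, so its borders rest on those 3 bases. The next in length is the intron of 30 bases at 937012 to 937041 on sequence 17 (minus strand), with 96 spliced reads in 90 distinct alignments and 2 unspliced crossings. Reads that reached the intron or its sides numbered 108, and 44 reads started or ended inside it or within 10 bases of it. Reads that stop less than 10 bases past a border are not counted as crossings. The median identity of the spliced reads was 91.2%, against 99.1% over all short introns. All 1159 reads of the locus had a median identity of 95%. The other introns of the locus run on the plus strand, with 58 reads at 935892 to 936141 and 49 reads at 935458 to 935673. A single read placed a gap of the same length 4 bases further on, at 937016 to 937045, and on the plus strand. The direction of this member is thus against that of its neighbours.

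Of the other members below 52 bases, the intron of 30 bases at 5936024 to 5936053 on sequence 16 was in 5 reads with no unspliced crossing, and the intron of 41 bases on sequence 7 is given above. The intron of 51 bases at 9784697 to 9784747 on sequence NA had 3 spliced reads and 5 unspliced of 11 crossings. Thus 2 of the 5 shortest members had no unspliced crossing and 3 had some. At the other end, 9 members had 100 bases, and the 5 with the most reads had 120, 15, 11, 9 and 5. The first of them is at 382702 to 382801 on sequence 12 and is the first of 4 introns. None of these 5 had an unspliced crossing.

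The 1900 loci with an intron of 2 or more reads gave 1910 pairs of locus and strand with such an intron. Among the 397 loci with short introns, spliced reads on both strands were found in 5, with 9 short introns. In 2 of these loci the short intron was the only one on its strand, namely the introns on sequences 17 and 12 given above. At a further locus, on sequence 9 with the short intron at 2978725 to 2978819 (95 bases, 4 reads), 5 other spliced reads had the same direction and 19 the opposite one.

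Short introns were found on every sequence. Sequence 12 held 100, sequence 6 held 70 and sequence 2 held 53, against 2 on sequence 8. As a share of the introns on a sequence they ranged from 3.13% on sequence 8 (2 of 64, interval 0.381 to 10.8) to 17.7% on sequence 11 (14 of 79, interval 10.04 to 27.9). These intervals overlap, but not all pairs of sequences did. The shares on sequence 6 (16.2%, interval 12.8 to 19.98) and sequence 12 (15.4%, interval 12.7 to 18.4) had intervals above those on sequence 8, sequence 9 (7.69%, interval 4.27 to 12.6) and sequence 16 (8.65%, interval 5.68 to 12.5). These pairs were picked from many after the values were seen. Short introns that share a locus are not independent, so the intervals are too narrow. Of the 18 members under 60 bases, 5 were on sequence NA and 4 on sequence 15, which held 200 and 88 introns in all.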

How the data were processed

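Per the file headers, the authors placed the 454 reads with GMAP version 2007-09-28, with both options for intron length at 1000, so introns above that can be missed. The deposited N-replete records list, for every aligned read, its exons with their aligned bases and the genome gap that follows. These are lengths in bases, another kind of value than an expression unit. The submitters' processing notes also name GSNAP. No source used here names the build, and the gene table at hand belongs to assembly v5.5, so no gene was assigned and no sequence was read.

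The listed alignment with the highest identity times aligned share was kept for each read. A read was dropped when a separate place came within 0.1 percentage points of it, and at most 5 places per read are listed. Gaps with GT-AG signs were merged by sequence, start, end and transcript strand. The members, length classes and the 5' end rule were chosen with earlier results of these data known. Introns named with values are the 10 with the most reads, the 5 shortest, the 5 longest, those with more unspliced than spliced crossings, and those of the 3 loci with the most members. Sites with several partners and the intron on sequence 9 in the paragraph on direction were chosen after their values were seen.

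No test was run, since 1 library has no replicate error. With 223396 reads, shares over all short introns have intervals of a few percentage points, and introns with few reads have wide ones. Reading, ties, intron calls, order and crossings were checked on simulated records. Alternatives were single-place reads, limits on identity (95%) and aligned share (90%), duplicates counted once, a minimum of 1 or 10 reads, limits of 90 or 110 bases, 10 exon bases on both sides, gaps of at least 50 bases and leaving out 1 locus. Alternatives on loci, overlapping forms, distinct alignments and read-through were added after seeing the data. Computation used Python (3.11.15) with the packages numpy (2.4.6) and scipy (1.17.1), and plots were drawn with matplotlib (3.10.9).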

Additional observations from a re-analysis of the deposited data

Results flagged for a closer look

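Signals were present in data that the counts of short introns do not use. Tied reads, which had a separate place scoring within 0.1 percentage points, held 22 splice events of up to 100 bases at 14 distinct introns, of which 1 was a member and 5 others were in 2 or more tied reads. Introns of up to 100 bases seen in only 1 read numbered 353. They had a median length of 81 bases and a median read identity of 98.8%, and 351 of them had at least 10 exon bases on both sides. The tie rule and the minimum of 2 reads left these observations out, and there is no control library to set beside them.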

How the results depend on the processing

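7 results were recomputed under 10 alternative settings and a few added after seeing the data, and a share or median was taken as unchanged when it stayed inside its interval. The share of first introns among short introns (51.3%) became 57.3% with at least 10 reads per intron, 46.4% in loci with 3 or more introns and 45.9% in loci with a 5' end. It stayed between 49.4% and 52.4% under the other alternatives. Read-through (1.63%) moved under the most settings. It was 1.10% with single-place reads, 1.28% with both quality limits, 1.20% with duplicates counted once and 5.98% with a minimum of 1 read. It was 0.343% with at least 10 reads, 2.35% up to 90 bases, 1.44% up to 110 bases, 1.30% with gaps of at least 50 bases and 0.465% without the 7 members read through in most crossings. Apart from the last setting, read-through was recomputed for short introns only. Whether its difference from longer introns held under the other settings was not tested. The number of short introns (564) fell to 463 with both quality limits. It was 917 with 1 read and 128 with 10 reads, by construction, with median reads of 2 and 24. The share of introns that were short (12.5%) was 11.3% with both quality limits, 10.04% with 1 read and 15.1% with 10 reads. It was 9.61% up to 90 and 14.96% up to 110 bases. These length limits gave median lengths of 78 and 85 bases. Lengths divisible by 3 (32.1%) came to 37.5% with at least 10 reads. Except for the limits themselves, the cause of these shifts was not tested. No paired analysis was possible because 1 library was analysed. With 2 to 4 reads at 307 of the short introns, rare partners and unspliced forms can go unseen.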
